A study of Mus musculus with 4 samples.

Results

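Neurog3, Atoh1, Dll1, Dll4, Hes1 and Hes6 are 6 of the 29161 genes in the deposited count table, chosen by name as the proneural factors, Delta ligands and Hes genes of the circuit that selects endocrine cells in the gut. They were followed in all 290 cells of the table, and the 50 cells with at least 5 Neurog3 counts were compared with the 240 other cells. The study sequenced single cells from mouse enteroids, which are epithelial cultures grown for 5 to 8 days from intestinal crypts in Matrigel, fed with EGF, noggin and R-spondin-1. The cells were eYFP-positive and DAPI-negative, and 1 was sorted into each well, for 92 cells on each of 4 plates. All plates came from female CD1 mice with 1 Neurog3eYFP allele (Neurog3eYFP/+, also written Ngn3eYFP in the labels), so every cell carries the reporter allele and no plate lacks it. The eYFP protein can outlast Neurog3 RNA, and the sorted cells therefore include descendants of Neurog3 cells. Duodenum replicate 1 was from 39-week mice, whereas duodenum replicates 2 and 3 and jejunum replicate 1 were from 12-week mice. The labels do not say how many animals gave a plate, so p-values measure the spread between plates, and the jejunum (1 plate) and the age of 39 weeks (1 plate) cannot be told apart from their single plates.

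The sorted cells held the markers of the labelled type. Epcam, an epithelial adhesion molecule, had at least 5 counts in 98.3% of all cells, and the granin gene Chgb in 100%. Alpi and Apoa1, which mark absorptive enterocytes, reached 5 counts in 2 cells and 1 cell, and the tuft and immune or stromal markers Pou2f3, Gnat3, Cd3e and Col3a1 in 0 cells. The 4 plates held 72, 83, 72 and 63 cells, in the order duodenum replicates 1, 2 and 3 and jejunum replicate 1, and this order is kept below. Plate totals were 23893272 to 46490618 counts, and single cells held 202711 to 2312044 counts. Of 92 well names, 88 occur on more than 1 plate, and cells were therefore kept apart by plate.

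In the intestinal crypt, Notch receptors read the Delta and Jagged ligands of neighbouring cells, and the released receptor domain works with Rbpj to switch on Hes1. Hes1 is a repressor of proneural genes, which keeps a cell out of the secretory lineages. Atoh1 opens the secretory lineages (goblet, Paneth and endocrine cells), and Neurog3 acts after it, for a short time, to start the endocrine programme. Cells on that path carry Delta ligands such as Dll1 and Dll4, which activate Notch in their neighbours, and Hes6 is a family member that does not act as a classical Notch-driven repressor and can oppose Hes1.

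Because Hes repressors bind class C sites (CACGNG), the 250 bases before the annotated start of each member were read from RefSeq on GRCm38.p6 and searched on both strands. An entry was found for 5 of the 6 members, and Hes1 had none. Class C letters occur in 23.5% of all 32851 promoters of this length. They are shown in capitals for Neurog3 (chr10:62132840-62133089, plus strand), Atoh1 (chr6:64728875-64729124, plus strand), Dll4 (chr2:119325534-119325783, plus strand) and the first Hes6 start (chr1:91414039-91414288, minus strand), because proneural and Delta genes are the known targets of Hes repressors and Hes6 was the member present in most cells.
Neurog3: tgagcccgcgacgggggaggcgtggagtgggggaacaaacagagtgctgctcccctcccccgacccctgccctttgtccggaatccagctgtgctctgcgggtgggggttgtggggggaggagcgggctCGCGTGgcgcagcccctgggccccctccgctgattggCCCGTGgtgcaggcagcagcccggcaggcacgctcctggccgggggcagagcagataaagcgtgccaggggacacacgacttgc
Atoh1: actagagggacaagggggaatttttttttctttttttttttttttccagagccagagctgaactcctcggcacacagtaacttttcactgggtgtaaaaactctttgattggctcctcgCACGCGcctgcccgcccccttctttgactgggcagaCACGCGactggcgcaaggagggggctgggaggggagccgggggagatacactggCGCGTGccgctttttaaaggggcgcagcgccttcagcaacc
Dll4: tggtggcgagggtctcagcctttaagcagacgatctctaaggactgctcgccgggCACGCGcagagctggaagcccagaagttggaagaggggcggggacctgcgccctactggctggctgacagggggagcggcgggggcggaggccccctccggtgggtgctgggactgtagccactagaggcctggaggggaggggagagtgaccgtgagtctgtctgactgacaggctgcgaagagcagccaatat
Hes6: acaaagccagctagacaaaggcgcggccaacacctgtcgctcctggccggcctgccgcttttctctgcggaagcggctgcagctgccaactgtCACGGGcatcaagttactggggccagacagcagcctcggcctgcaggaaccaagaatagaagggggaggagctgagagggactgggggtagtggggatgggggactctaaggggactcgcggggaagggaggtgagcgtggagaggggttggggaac
The first capital letter lies 121 and 84 bases before the start in Neurog3, at 131, 95 and 41 bases in Atoh1, at 195 bases in Dll4 and at 157 bases in Hes6. The Dll1 windows held 1 class C match at each of their starts, at 105 and 68 bases, and the second Hes6 window had none. The general E-box of proneural factors (CANNTG, in 66.2% of promoters) was found in Neurog3, in both Dll1 windows and in both Hes6 windows, and was not among the letters of the Atoh1 and Dll4 windows. Its CAGCTG form, which is contained in CANNTG and occurs in 13.0% of promoters, lay 165 bases before the Neurog3 start, 132 bases before the second Dll1 start, and 171 and 150 bases before the first and second Hes6 starts. The N-box (CACNAG, 36.7% of promoters) was found in Dll4 and at the second Hes6 start, and the Rbpj core TGGGAA (21.6%) in no window of the 5 genes. The class C pattern overlaps CANNTG only where it reads CACGTG. These matches describe letters and no binding was measured.

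Neurog3 (ENSMUSG00000044312, GRCm38 chr10:62133090-62134763, plus strand) was concentrated in a few cells. Its plate levels, in counts per 1000000 counts (CPM, all cells of a plate summed), were 13.7, 174, 41.1 and 16.9, so that duodenum replicate 2 was the highest and the jejunum plate lay within the duodenal range. The duodenal mean was 76.4 ± 85.9 CPM (SD, n = 3 plates), a spread as large as the mean. At least 5 counts were found in 7, 12, 24 and 7 cells, or 9.72%, 14.5%, 33.3% and 11.1% of the plates, which gives 50 cells or 17.2% (exact 95% interval 13.1 to 22.1%). All intervals cover counting error only. The plate with the most Neurog3 cells was therefore duodenum replicate 3, while the plate with the highest level was duodenum replicate 2.

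The difference lay in the level per cell. In the cells with at least 5 counts, the median Neurog3 level was 67.7, 926, 82.0 and 129 CPM, and the fullest cell of each plate held 142, 1305, 314 and 260 counts. That one cell supplied 43.3%, 19.6%, 20.3% and 33.1% of its plate's Neurog3 counts. The limit of 5 counts lay in a sparse range. Just inside it, 4 cells held 5 counts, none held 6 or 7, and 1 each held 8, 9 and 10. Just outside, 32 cells held 1 count, 10 held 2, 3 held 3 and none held 4. Median depth was 327775, 423470, 359620 and 572921 counts in the Neurog3 cells against 314185, 433210, 466818 and 719834 in the other cells, so the Neurog3 cells were shallower in every plate but duodenum replicate 1.

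**Figure D1:**
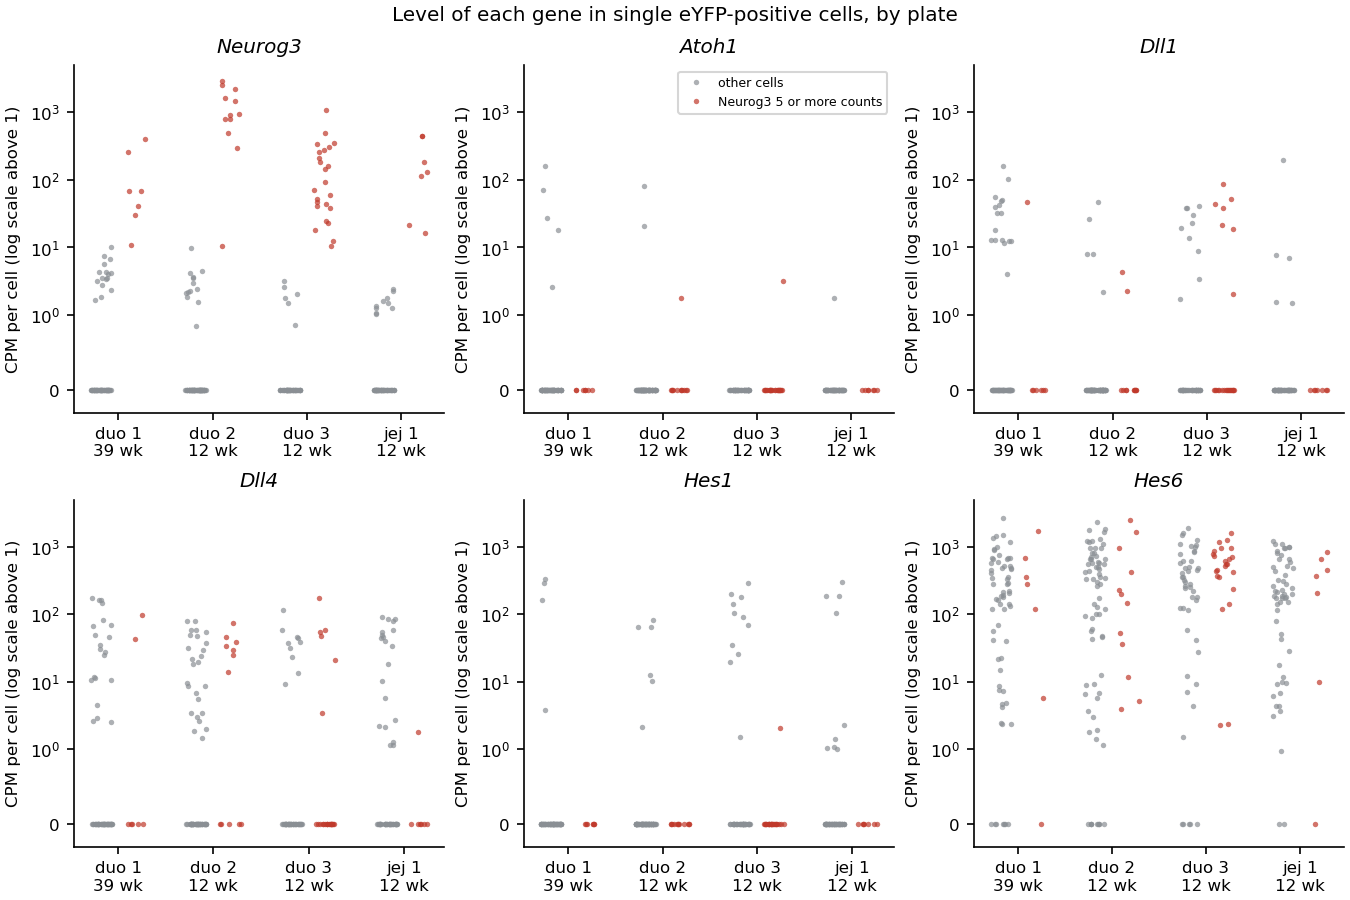
CPM of each of the 6 genes in every cell, by plate, on an axis that is linear near 0 and logarithmic above. Each point is a cell, red for at least 5 Neurog3 counts and grey otherwise. Neurog3 reaches its highest levels in duodenum replicate 2, and the raised Hes1 points are grey.

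Part of the Neurog3 gene is shared with a neighbour. Its last exon overlaps 273 exonic bases (62134489 to 62134761) of Fam241b, which is read from the opposite strand, and the strand setting of the counting is not given in the sources used here. Fam241b had at least 5 counts in 32 of the 50 Neurog3 cells (64%) and in 84 of the 240 other cells (35.0%). By plate the shares were 42.9% against 40.0%, 66.7% against 28.2%, 66.7% against 33.3%, and 71.4% against 39.3%. It was also present at that level in 61 of the 195 cells with 0 Neurog3 counts, so its counts occur without Neurog3 counts. How far either gene carries reads of the other was not tested.

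Atoh1 (ENSMUSG00000073043, chr6:64729125-64731245, plus strand), the factor that opens the secretory lineages, was nearly absent from these cells. Its plate levels were 4.77, 0.967, 0.0265 and 0.0430 CPM, which came from 154 counts in all. At least 5 counts were found in 4, 2, 0 and 0 cells, all of them duodenal. None of these 6 cells held more than 1 Neurog3 count, and no Neurog3 cell held more than 1 Atoh1 count. In the Neurog3 cells Atoh1 had 0 of 50 cells at 5 counts, and in the others 2.5%. The mean difference over plates in the share of cells with an Atoh1 count, after each cell was thinned to 100000 counts, was -1.86 ± 2.27 percentage points (SD, n = 4 plates, two-sided exact permutation p = 0.5). Plate values were -4.62, -2.82, 0 and 0, and with so few Atoh1 cells a difference was not detectable.

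Pooled over plates, the 6 Atoh1 cells stood apart in their other genes. The summed level of the goblet marker list had a median of 69945 CPM in them against 1669.6 CPM in the other cells, and the Paneth list 7407 against 224 CPM. The list of endocrine onset factors was at 65.1 against 1617 CPM, and the granin list at 426 against 9492 CPM. In duodenum replicate 1, which holds 4 of the 6 cells, the endocrine onset list was at 27.6 against 1394 CPM, whereas the 2 Atoh1 cells of duodenum replicate 2 were at 1863 against 1548 CPM. Low endocrine values were thus a feature of the cells of 1 plate. The goblet and Paneth medians above are not split by plate. In the clusters described below, the 4 Atoh1 cells of duodenum replicate 1 lay in the cluster of goblet and Paneth markers. The 2 of duodenum replicate 2 lay in the Plb1 and Kcne3 clusters. Dll4 had at least 5 counts in 4 of the 6 cells, Dll1 in 2 and Hes1 in 1.

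Dll1 (ENSMUSG00000014773, chr17:15367354-15376872, minus strand), a Notch ligand, had plate levels of 9.79, 1.05, 8.04 and 3.42 CPM. Duodenum replicate 2, the plate with the highest Neurog3, was the lowest for Dll1, and the jejunum lay within the duodenal range (mean 6.29 ± 4.63 CPM, SD, n = 3 plates). At least 5 counts were found in 13, 2, 13 and 3 cells, together 31 cells or 10.7%. In the jejunum 1 cell supplied 89.9% of the Dll1 counts.

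Neurog3 cells did not differ from the others in Dll1 by more than the spread between plates. Summed Dll1 levels were 4.33 against 10.4, 0.774 against 1.09, and 14.5 against 5.70 CPM in the duodenal plates, and 0 against 3.76 CPM in the jejunum, where the other cells were at least 5.25-fold higher when 3 counts are set as the floor for the Neurog3 sum. Direction differed between plates, since only duodenum replicate 3 was higher in the Neurog3 cells. Of the 50 Neurog3 cells 7 had at least 5 Dll1 counts (14.0%, exact 95% interval 5.82 to 26.7%), against 10.0% of the others (6.51 to 14.5%). After thinning, the mean difference in detection was -0.50 ± 9.10 percentage points (SD, n = 4 plates, two-sided exact permutation p = 1).

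The Dll1 cells stood apart from the other cells in goblet and granin genes. Their goblet list was high, with a median of 14545 CPM in Dll1 cells against 1354 CPM in the other cells, and it was higher in each plate. Their granin list was low, at 361 against 13156 CPM, and lower in each plate (348 against 5211, 6459.7 against 15599, 267 against 10260 and 920.3 against 37872 CPM). The endocrine onset list had a median of 682 against 1659 CPM. Of the 31 Dll1 cells 29 had at least 5 Hes6 counts (93.5%, against 76.8% of cells without Dll1). Median totals of the Dll1 cells were 357575, 433151, 654147 and 783705 counts in the 4 plates. The cells without Dll1 had 314185, 432369, 417485 and 668410 counts. The part of depth in this profile was not tested.

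Dll4 (ENSMUSG00000027314, chr2:119325784-119335962, plus strand), the other Delta ligand, was the more evenly spread of the pair. Its plate levels were 17.7, 11.8, 9.81 and 12.8 CPM, a 1.80-fold range. At least 5 counts were found in 16, 22, 15 and 13 cells, which are 22.2%, 26.5%, 20.8% and 20.6% of the plates and 66 cells in all. Dll1 and Dll4 met in 4 cells, which are 12.9% of the Dll1 cells and 6.06% of the Dll4 cells. Over all cells, Dll4 had at least 5 counts in 22.8% and Dll1 in 10.7%. Dll4 shares 214 exonic bases (119325981 to 119326194) with the antisense gene Gm14207, which had at least 5 counts in 33.3% of the Dll4 cells and 21.9% of the rest.

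Summed Dll4 was higher in the Neurog3 cells than in the other cells in the 3 duodenal plates and not in the jejunum. The summed Dll4 levels were 25.6 against 16.8, 22.6 against 10.1, and 16.3 against 7.5 CPM in duodenum replicates 1, 2 and 3, with ratios from 1.53 to 2.24. In the jejunum they were 0.239 against 14.0 CPM, the first being 1 count in 7 cells, so the other cells were 58.8-fold higher (counting interval 10.6 to 2323). The jejunal plate thus went against the other 3. Single cells weighed on the duodenal sums. The fullest Neurog3 cell held 51 of 65, 38 of 117 and 86 of 162 Dll4 counts in duodenum replicates 1, 2 and 3. At least 5 Dll4 counts were found in 26.0% of the Neurog3 cells (exact 95% interval 14.6 to 40.3%) and 22.1% of the others. By plate the shares were 28.6% against 21.5%, 50.0% against 22.5%, 20.8% against 20.8%, and 0% against 23.2%. Whether the Neurog3 effect differed between jejunum and duodenum was tested as an interaction, which gave -6.66 ± 2.85 for Dll4 (log2, SE, edgeR adjusted p = 0.852). Of 12438 genes 0 were called (0%), with 1% higher and 4.75% lower at an unadjusted p of 0.05, and none of the 4 tested members was among these. After thinning, the mean difference in Dll4 detection was 2.66 ± 23.1 percentage points (SD, n = 4 plates, two-sided exact permutation p = 0.75), a spread many times the difference.

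The Dll4 cells were unlike the Dll1 cells in the granin list, which includes the prohormone-processing genes. It had a median of 18167 CPM in the Dll4 cells against 7024 CPM in the others, higher in duodenum replicates 2 and 3 and the jejunum and lower in duodenum replicate 1 (768 against 2491 CPM). The enterochromaffin list, which marks serotonin cells, was at 3422 against 2275 CPM, again with duodenum replicate 1 as the exception (1110.1 against 1808 CPM). The Dll4 cells were deeper in each plate, with median totals of 344271, 497435, 478631 and 780888 counts. The cells without Dll4 had 315246, 403125, 416332 and 668410 counts. The part of depth in this profile was not tested.

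Hes1 (ENSMUSG00000022528, chr16:30064384-30067796, plus strand), the repressor switched on by Notch, was found in few cells. Plate levels were 12.6, 5.38, 26.4 and 15.7 CPM, and at least 5 counts were present in 3, 4, 10 and 4 cells, together 21 cells or 7.24%. Duodenum replicate 3 was the highest in both measures and the jejunum lay inside the duodenal range (mean 14.8 ± 10.7 CPM, SD, n = 3 plates). In each plate the fullest cell supplied 32.5 to 44.0% of the Hes1 counts, and the median level in cells with at least 5 counts was 294, 65.3, 98.0 and 186 CPM.

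No cell held both Neurog3 and Hes1 at 5 counts. Neurog3 cells were 17.2% of all cells and Hes1 cells 7.24%. How many equally sparse genes also had no Neurog3 cell was not counted, so this non-overlap is not set against other genes. Hes1 had at least 5 counts in 0 of 50 Neurog3 cells, which allows a share of up to 6% on the 3-count limit and 7.11% by the exact interval, and in 21 of 240 other cells (8.75%). The 50 Neurog3 cells together held 1 Hes1 count, and the 21 Hes1 cells held at most 3 Neurog3 counts each. By plate, the share of the other cells with 5 Hes1 counts was 4.62%, 5.63%, 20.8% and 7.14%, against 0% of the Neurog3 cells throughout. Summed Hes1 was 0 against 14.0, 0 against 6.22, 0.1 against 35.9, and 0 against 17.2 CPM. With 3 counts as the floor of each Neurog3 sum, the other cells were at least 11.9-fold higher in duodenum replicate 1, at least 10.7-fold in duodenum replicate 2 and at least 24.0-fold in the jejunum. In duodenum replicate 3, where the Neurog3 sum held 1 count, the ratio was 358 (counting interval 64.3 to 14140.5).

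The difference in Hes1 had the same direction in all plates, but 4 plates limit the test. After thinning, the share of cells with a Hes1 count was lower in the Neurog3 cells by 4.62, 5.63, 20.8 and 10.7 points, a mean difference of -10.4 ± 7.42 percentage points (SD, n = 4 plates). The two-sided exact permutation p was 0.13, the smallest that 4 plates can give, before any adjustment over the 5 genes compared in this way. Cells with 1 to 4 Neurog3 counts did not follow the cells above the limit. Hes1 reached 5 counts in 14 of 195 cells with 0 Neurog3 counts (7.18%), in 7 of 45 cells with 1 to 4 (15.6%, exact 95% interval 6.49 to 29.5%), in 0 of 21 cells with 5 to 49 and in 0 of 29 cells with 50 or more, where the exact upper limits are 16.1% and 11.9%. With other cells deeper than the deepest Neurog3 cell of their plate left out, Hes1 had 5 counts in 14 of 207 other cells (6.76%) and the mean difference in detection was -8.65 ± 6.76 points (n = 4 plates, exact permutation p = 0.13). With the split set at 1 Neurog3 count the mean difference was -3.31 ± 5.29 points (n = 4 plates, exact permutation p = 0.25). The source of counts of 1 to 4 was not tested.

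**Figure D2:**
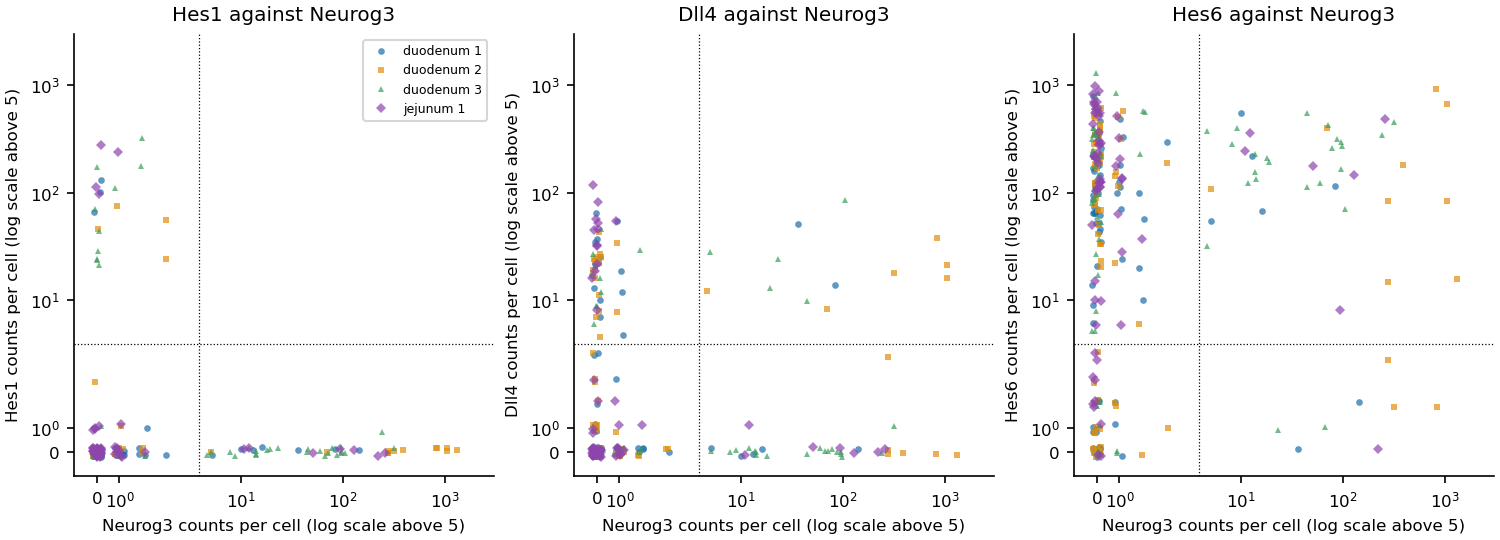
Counts of Hes1, Dll4 and Hes6 in each cell against the cell's Neurog3 counts, on axes that are linear up to 5 counts and logarithmic above. Dotted lines lie just below 5 counts. Each point is a cell. The upper right field of the Hes1 panel is empty, whereas 13 cells lie in that of Dll4 and 42 in that of Hes6.

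The 21 Hes1 cells were deeper than the rest and had higher medians of the stem and cycling marker lists. Their median total was 401927, 1010904, 733847 and 868516 counts in the 4 plates, against 316307, 431564, 403058 and 671139 counts in the cells without Hes1, and 7 of the 21 held more counts than any Neurog3 cell of their plate. The part of depth in these profiles was not tested. The stem list (Lgr5, Olfm4 and others) had a median of 567 CPM in the Hes1 cells against 43.3 CPM in the rest. Plate pairs were 128 against 134, 334 against 27.8, 651 against 12.4, and 1431 against 70.2 CPM, so that duodenum replicate 1 did not share the difference. The cycling list was at 73.8 against 7.21 CPM and was higher in each plate. The endocrine onset list was lower in each plate (23.3 against 1337, 406 against 1659, 1109 against 1807 and 795 against 1783 CPM), and the granin list had a median of 1145 against 9498 CPM. Hes6 had at least 5 counts in 20 of the 21 Hes1 cells, and in 78.6% of all cells.

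Hes6 (ENSMUSG00000067071, chr1:91411483-91414038, minus strand) was common to nearly all cells. Its plate levels of 342, 380, 472 and 328 CPM spanned 1.44-fold, and at least 5 counts were found in 75.0%, 72.3%, 86.1% and 82.5% of the cells, together 228 cells. The jejunum was the lowest plate, next to duodenum replicate 1. Summed Hes6 in the Neurog3 cells was 399 against 336, 481 against 365, 555 against 442, and 337 against 327 CPM, ratios of 1.19, 1.32, 1.26 and 1.03. It was higher in the Neurog3 cells of each plate, with the smallest ratio in the jejunum, and each ratio was below the 1.44-fold range of the plates. At least 5 Hes6 counts were present in 42 of the 50 Neurog3 cells (84.0%) and in 77.5% of the others. After thinning, the mean difference in detection was 1.27 ± 13.0 percentage points (SD, n = 4 plates, two-sided exact permutation p = 0.875).

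**Figure D3:**
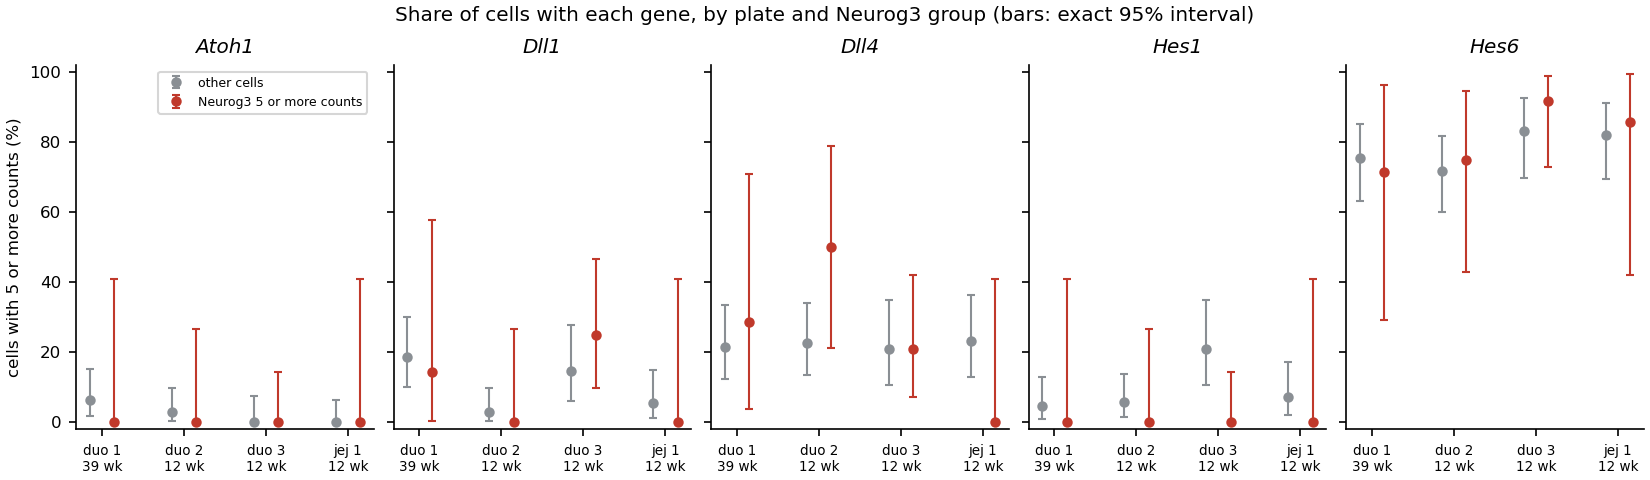
Share of cells with at least 5 counts of Atoh1, Dll1, Dll4, Hes1 and Hes6 in the Neurog3 cells (red) and the other cells (grey) of each plate, with exact 95% intervals that cover counting error only. Hes1 is at 0% in the Neurog3 cells of all 4 plates against 4.62 to 20.8% in the others, and Dll4 is at 50.0% in duodenum replicate 2 and at 0% in the jejunum.

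To place the members among all genes, counts were summed per plate and cell group and compared by edgeR's quasi-likelihood test with the plate as a block, Neurog3 itself being left out. Of 12438 genes tested, 0 were higher and 3 lower in the Neurog3 cells at a Benjamini-Hochberg adjusted p of 0.05 (0.0241% lower). None of the 4 members that passed the filter on low counts was among them, and Atoh1 did not pass it. Hes1 had a log2 fold change of -9.11 ± 1.82 (SE, edgeR adjusted p = 0.4), and the size of this value depends on the prior count, since 3 of the 4 Neurog3 sums were 0. In DESeq2 the same contrast gave -7.91 ± 1.52 with an adjusted p of 0.000102. Dll1 was at -1.13 ± 1.70 (edgeR adjusted p = 0.949, with values from -2.13 to -0.17 when a plate was left out), Dll4 at 0.03 ± 1.69 (adjusted p = 0.999) and Hes6 at 0.31 ± 0.22 (adjusted p = 0.839). At an unadjusted p of 0.05, 1 of the 4 members (Hes1) was lower, against 6.1% of all genes, and 0 were higher, against 0.796%. DESeq2 called 5.94% of all genes lower and 0.523% higher, and 1 of the 4 members lower. Hes1 was lower in all 4 plates, as were 13.8% of genes, and Hes6 higher in all 4, as were 3.52%.

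The 3 genes past the threshold were the peptide hormone genes Gcg, Ghrl and Cck. Gcg, which encodes proglucagon, had a log2 fold change of -6.41 ± 0.30 (SE, edgeR adjusted p = 0.0111), from 0 against 0, 3.68 against 368, 29.1 against 2376, and 72.8 against 6639 CPM in the 4 plates. Ghrl, which encodes ghrelin, fell by 5.95 ± 0.46 on the log2 scale (adjusted p = 0.0265), from 1.97 against 333, 17.6 against 1055, 24.3 against 838, and 23.6 against 1519 CPM. Cck, which encodes cholecystokinin, fell by 4.77 ± 0.39 (adjusted p = 0.0265), from 0.788 against 55.1 to 125 against 5706 CPM. The summed level of each was lower in the Neurog3 cells of every plate that held its RNA, but the typical cell differed little. In the jejunum the median Gcg level was 65.3 CPM in Neurog3 cells and 77.9 CPM in the others, while the highest cell held 112 CPM in the first group and 133714 CPM in the second. Cells of very high hormone level were thus found among the other cells. Pooled over plates, at least 5 counts were found in 56% of Neurog3 cells against 45.4% of the others for Gcg. The pooled shares were 48% against 60% for Ghrl and 80% against 72.1% for Cck. These pooled shares do not keep the plates apart. By plate the Gcg shares were 0% against 0%, 8.33% against 11.3%, 83.3% against 93.8%, and 100% against 100%, so no plate was higher in the Neurog3 cells. For Ghrl they were 0% against 9.23%, 58.3% against 70.4%, 41.7% against 68.8%, and 100% against 98.2%. For Cck they were 0% against 7.69%, 100% against 98.6%, 87.5% against 87.5%, and 100% against 100%. With duodenum replicate 2 or the jejunum left out 0 genes were called, with duodenum replicate 1 left out 1 was, and the split at 1 count and limma also gave 0, while DESeq2 called 804 genes. Over all tested genes the median was -0.55 (log2), which moved to -0.45 with RLE scaling, to -0.01 in limma on mean log values per cell and to 0.01 without the block, and fold changes are read against it. The share of genes with a fold change above 0 was 29.9%, 47.4% in limma and 50.4% without the block.

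The other genes of the pathway gave no call at the adjusted threshold in edgeR. Among the 5 ligand genes, 1 was lower at an unadjusted p of 0.05 and none higher, with a list median of -1.13 against -0.55 over all genes. Over all genes 6.1% were lower and 0.796% higher at that p. That ligand was Jag1, at 0 against 2.06, 0 against 6.5, 0.201 against 7.64, and 0.239 against 5.79 CPM (-5.68 ± 1.32, SE, edgeR adjusted p = 0.4, not called by DESeq2). It had at least 5 counts in 12 cells, none of them a Neurog3 cell, where Neurog3 cells were 17.2% of all cells. How many equally sparse genes had the same pattern was not counted. Only Notch3 of the 4 receptors passed the filter, and its direction was mixed, at 0 against 16.3, 0.193 against 17.6, 52.2 against 7.25, and 0 against 3 CPM, although DESeq2 called it lower. Over all cells the receptors were sparse, with at least 5 counts in 5 cells for Notch1, 1 for Notch2, 17 for Notch3 and 1 for Notch4.

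Of the 28 genes that modify ligands or receptors or cleave them, 23 were tested and none passed an unadjusted p of 0.05 in either direction (median -0.66). One of them was higher in all plates and 1 lower, against 3.52% and 13.8% of all genes. Mfng, a Fringe sugar transferase that tunes which ligands a receptor reads, was the higher one, at 27.2 against 0.468, 89.0 against 52.6, 62.4 against 22.7, and 62.1 against 19.0 CPM (2.23 ± 1.04, edgeR adjusted p = 0.74). Numb, an inhibitor of Notch, was the lower one, at 0 against 1.03, 0.387 against 3.02, 7.93 against 9.7, and 0.478 against 6.19 CPM (-2.63 ± 1.35). Of 12 nuclear cofactors 11 were tested, again with none past that p (median -0.78). Rbpj, the DNA-binding partner of the Notch domain, was at 94.1 against 22.2, 40.6 against 36.5, 25 against 18.3, and 82.6 against 33.6 CPM (1.05 ± 0.68), and the corepressor Tle6 at 290.3 against 124, 120.4 against 85.1, 78.6 against 50.9, and 144 against 98.9 CPM (0.78 ± 0.34). Both were higher in the Neurog3 cells of each plate without passing the test. Of 10 listed Hes and Hey genes and Nrarp, 8 were in the table and 4 tested, and Hes1 was the one past an unadjusted p of 0.05. Hes5 reached 5 counts in 4 cells, Hey1 in 5 and Hes7 in 21.

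Among genes that act with or after Neurog3, some were higher in the Neurog3 cells at an unadjusted p, and none passed the adjusted threshold. Of 14 listed bHLH factors and partners 10 were tested, and 2 were higher and none lower at an unadjusted p of 0.05 (0.796% and 6.1% of all genes). These were Neurod1, a direct follower of Neurog3, at 959 against 288, 461 against 308, 166 against 99.5, and 399.9 against 324 CPM (0.89 ± 0.30, SE), and Neurod2 at 352 against 210.4, 269 against 162, 182 against 71.5, and 350.3 against 109.5 CPM (1.18 ± 0.33). DESeq2 called Neurod2 higher and Ascl2 lower. All 14 endocrine onset factors were tested, 4 were higher and 2 lower at that p, with the same shares of all genes, and the list median was 0.39 against -0.55 over all genes. The higher 4 were Runx1t1 (1.32 ± 0.28), Pax4 (1.42 ± 0.36), Rcor2 (1.23 ± 0.34) and St18 (1.02 ± 0.35), and DESeq2 called the first 3 of them. Pax4, which is needed for several endocrine subtypes, was at 326 against 163, 275 against 93.0, 344 against 74.9, and 144 against 89.4 CPM. The lower 2 were Pax6 (-3.55 ± 1.20) and Isl1 (-2.10 ± 0.74), factors of hormone-producing cells, and DESeq2 called Pax6. Gadd45a, a growth arrest gene, was at 746 against 296, 511 against 186, 660.4 against 211, and 438 against 115 CPM (1.65 ± 0.25, edgeR adjusted p = 0.4), higher in the Neurog3 cells of each plate. It belongs to a list of 7 cell cycle exit genes, of which 1 was higher and 1 lower (Cdkn1a, -0.97 ± 0.34) at the unadjusted p. None of the 7 secretory factors (Gfi1, Spdef and others) passed that p in either direction, with a median of -0.48. The lists were chosen with earlier results of these data in view and are not independent evidence of direction.

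**Figure D4:**
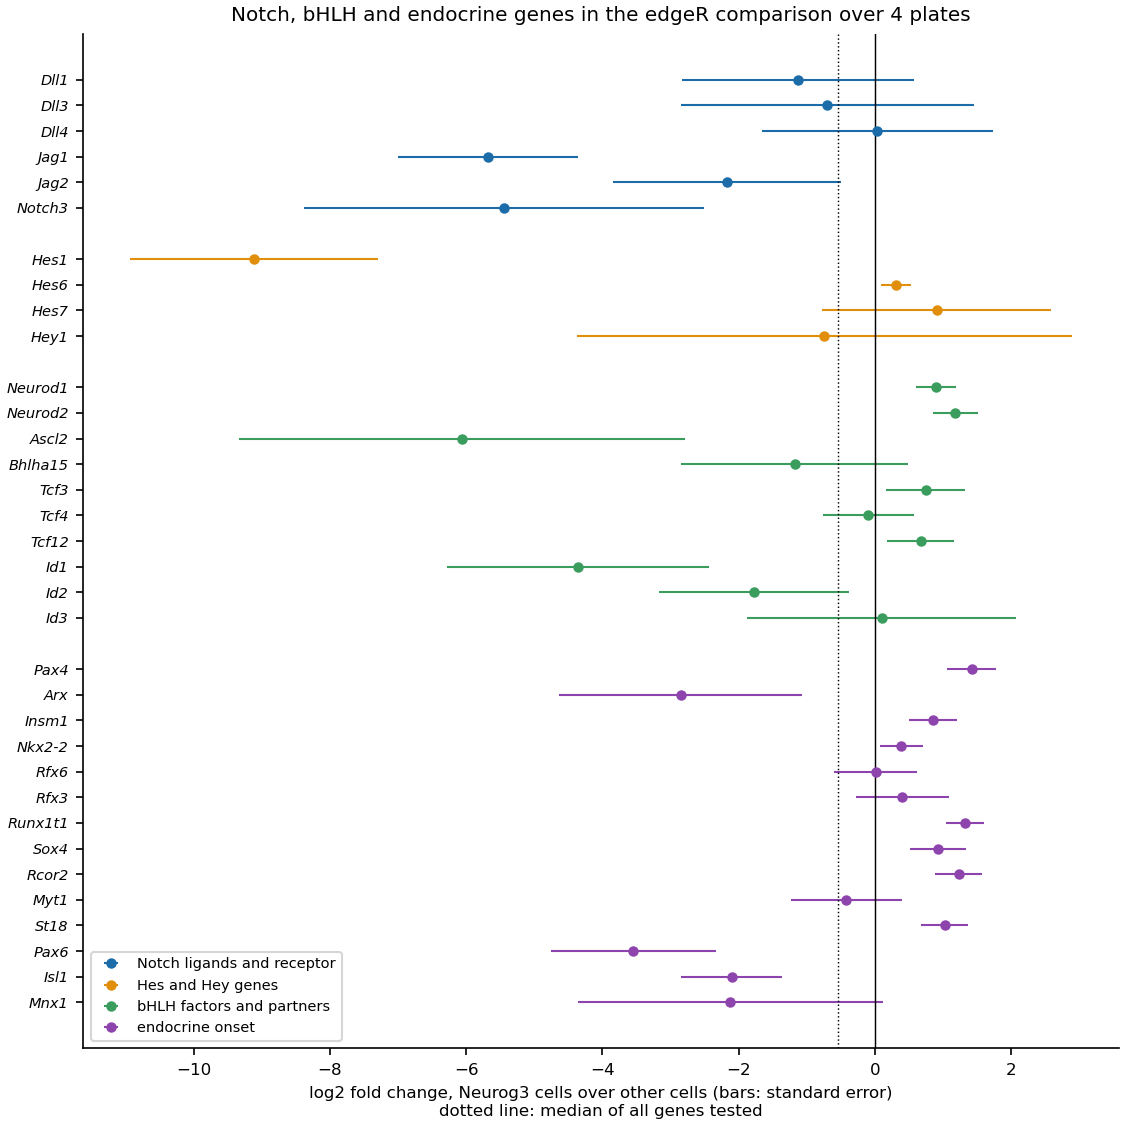
Log2 fold change (Neurog3 cells over other cells, edgeR, plate as block) with its standard error for the tested Notch ligands and receptor, Hes and Hey genes, bHLH factors and endocrine onset factors. The dotted line is the median of all tested genes, -0.55. Hes1 at -9.11 lies farthest to the left of the members and none of the genes shown passed the adjusted threshold.

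The cells with Atoh1 were set beside those with Neurog3 in 1 additive fit of 12042 genes. The Neurog3 term kept its 3 lower genes (Cck, Gcg and Ghrl, 0.0249% of those tested) and gave -8.95 ± 1.58 for Hes1 (edgeR adjusted p = 0.362), -1.09 ± 1.73 for Dll1, 0.06 ± 1.65 for Dll4 and 0.30 ± 0.22 for Hes6. It called 0 genes when duodenum replicate 2, duodenum replicate 3 or the jejunum was left out. At an unadjusted p of 0.05 this term had 0.764% of genes higher and 6.27% lower, with Hes1 as the 1 lower member, and DESeq2 called 0.332% higher and 4.29% lower, again with Hes1. The Atoh1 term rested on 1 sum, the 4 Atoh1 cells of duodenum replicate 1, and any change in it can be that sum. It called 1.01% of genes, 4 higher (0.0332%) and 118 lower (0.98%), and 0 when any of the other plates was left out. None of Dll1 (1.53 ± 2.57), Dll4 (0.27 ± 2.54), Hes1 (3.71 ± 2.03, adjusted p = 0.352) and Hes6 (-2.27 ± 0.45, edgeR adjusted p = 0.0755) was called. Hes6 was lower at an unadjusted p of 0.05, as were 14.1% of genes (3.01% were higher), and in DESeq2 (-1.98, adjusted p = 0.00543), which called 16.4% lower and 3.11% higher. The lower genes included 8 of the pathway lists, namely Runx1t1 (-13.80), Nkx2-2 (-7.30), St18 (-6.92), Pax4 (-6.50), Insm1 (-6.34), Neurod2 (-5.86), Neurod1 (-5.79) and Gadd45a (-3.95), with edgeR adjusted p from 0.0407 to 0.0497. The 4 higher genes were Pnliprp2 (4.28), Klk1 (3.34), Selenom (3.12) and Spint2 (2.46).

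Tissue and age could be compared only against 1 plate each, so the values below describe those plates, and a lack of calls shows no likeness of tissues or ages. The duodenal side of the tissue comparison also holds the 39-week plate. Jejunum against duodenum on whole plates gave a log2 fold change of -2.18 ± 1.35 for Neurog3 (-2.68 without the 39-week plate and -0.76 without duodenum replicate 2), -5.28 ± 4.37 for Atoh1, -0.88 ± 1.88 for Dll1, -0.01 ± 0.94 for Dll4, 0.04 ± 1.1 for Hes1 and -0.29 ± 0.51 for Hes6, in edgeR over 19329 genes. No gene was called by edgeR (0 of 19329, 0%). At an unadjusted p of 0.05, 2.53% were higher and 1.71% lower (819 genes), and DESeq2 called 0.264% higher and 3.52% lower (731 genes), with 0 of the 6 members under either rule. At 39 against 12 weeks in duodenum, Neurog3 was at -3.08 ± 0.98 (edgeR adjusted p = 0.630, DESeq2 -3.04 with an adjusted p of 0.00363), with 13.7 CPM in the 39-week plate against 174 and 41.1 CPM. The other 5 members lay between -0.54 for Hes1 and 3.17 ± 2.71 for Atoh1. No gene of 18480 was called by edgeR (0%). At an unadjusted p of 0.05, 3.5% were higher and 4.14% lower (1412 genes), and DESeq2 called 1.52% higher and 3.46% lower (920 genes). Neurog3 was the 1 member lower under both rules, and no member was higher.

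Cell clusters, made without the pathway genes, give the setting of each member as a description. Most of the 50 Neurog3 cells lay in the 3 largest clusters, named by their leading genes Plb1 (14 of 70 cells), Kcne3 (12 of 51) and Defa5 (13 of 43). The Afp and Ucn3 cluster, with 9 of 9 enterochromaffin markers raised, held 1 Neurog3 cell. So did the Gip and Gcg cluster, whose markers were peptide hormones. Enterochromaffin markers were also raised in the Defa5 cluster (6 of 9) and in the Prss22 cluster (4 of 9). The Prss22 cluster held 6 Neurog3 cells among its 30 cells. Of these 30 cells 27 came from duodenum replicate 1, as did 5 of the 6 Neurog3 cells. The Defa5 and Gip clusters held 0 cells of that plate. Hes1 cells lay mostly in the Kcne3 cluster (10 of 21) and in the Guca2a and Itln1 cluster of goblet and Paneth markers (5 of 21). Dll1 cells shared these places, with 12 of 31 in each, whereas the 66 Dll4 cells were spread over all 7 clusters, 4 to 12 in each. Of the 6 Atoh1 cells 4 were in the goblet and Paneth cluster, 22 of whose 34 cells came from duodenum replicate 1. Hes6 was found in 56.7 to 97.1% of the cells of every cluster.

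**Figure D5:**
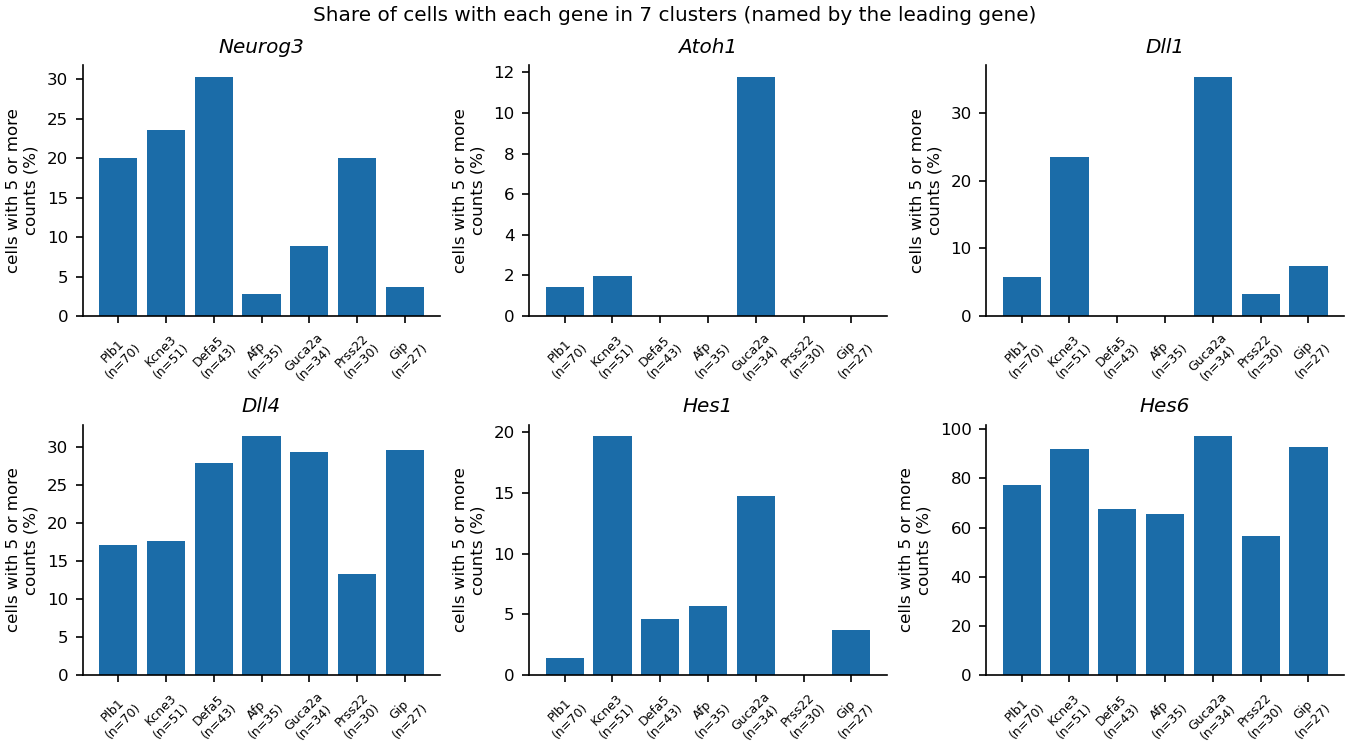
Share of cells with at least 5 counts of each of the 6 genes in the 7 clusters, each named by its leading gene. Hes1 and Dll1 are highest in the Kcne3 and Guca2a clusters, and Neurog3 is lowest in the Afp and Gip clusters.

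The genes whose levels across the 290 cells were most like a member's were found by Pearson's r on log2(CPM + 10) centred on each plate, among 9870 genes. Cells of a plate share their library and depth, and the values are weak. For Neurog3 the nearest were its overlapping neighbour Fam241b (0.32), Sars2 (0.29), Gadd45a (0.28), Pax4 (0.28), Capn2 (0.27), Gm10432 (0.27), Top2b (0.25), Tubb3 (0.23), Gm44045 (0.23) and Sept3 (0.22). Pax4 had at least 5 counts in 68.0% of the Neurog3 cells and 33.3% of the others. Hes1 stood near the other end of the Neurog3 order with r = -0.12, 9556 of the other 9869 genes being more like Neurog3. The nearest to Hes1 were Ccl25 (0.48), Fgfbp1 (0.45) and Cps1 (0.44), and the nearest to Atoh1 were Aqp1 (0.45), Defa17 (0.44) and Cldn15 (0.38). The Atoh1 values came from duodenum replicate 1 alone, where r was 0.78, 0.70 and 0.59, and were negative in each other plate. For Dll1 they were Anxa13 (0.37), Rps2-ps10 (0.36) and Rpl27-ps3 (0.36), for Dll4 Smtnl2 (0.25), Ids (0.25) and Blzf1 (0.23), and for Hes6 Rpl28 (0.40), Rpl28-ps1 (0.38) and Rplp1 (0.37). The ribosomal pseudogenes among them share sequence with their parent genes, so their counts are uncertain.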

How the data were processed

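The values are raw counts in 1 table, which the authors deposited with a column for each well of the BD Precise WTA plates, already filtered by them in a way the labels do not describe. The submitters' processing notes name bcl2fastq 2.17.1.14, cutadapt 1.10, Bowtie2 2.2.8, STAR 2.5.3a, UMI-tools 0.4.4, HTSeq 0.6.1 and the build mm10, without role or order. Neither the use of molecular indices to collapse copies nor the strand setting is stated by the labels, so counts may include PCR copies. Columns were matched to plates by the pool number in their names, with 0 left over. No further cell filter or doublet caller was applied.

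The 6 members and all gene lists were chosen with earlier results of these data known. Counts were summed per plate and cell group (at least 5 cells, 3 in the additive fit) and tested with edgeR 4.0.16 (R 4.3.3) by its quasi-likelihood test with TMM scaling, filterByExpr, the plate as a block and a Benjamini-Hochberg adjusted p of 0.05. The block pairs the 2 sums of a plate, which come from the same library. DESeq2 1.42.0, limma 3.58.1 and other splits, scalings and filters were the alternatives. Detection was compared after thinning each cell to 100000 counts (0 cells left out), with exact sign-flip permutation over plates (scipy 1.17.1), where the smallest two-sided p is 0.13 with 4 plates and 0.25 with 3. Shares have exact (Clopper-Pearson) 95% intervals, and an empty sum or share has a limit of 3 counts. In simulated data for the Neurog3 comparison (12439 genes, 200 of them raised), edgeR recovered 48 of 100 genes raised 16-fold and 83 of 100 raised 64-fold, with 1 false call. The raised genes had a mean above 5 CPM, and the simulated plates did not differ in level. Decreases, the direction of all called genes and of Hes1, were not simulated, so these rates do not describe their recovery.

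The text names the 6 members throughout, pathway-list genes past the threshold, up to 5 further genes per direction that pass and change alike in every plate, the 10 genes most like Neurog3 and the 3 most like each other member, and the 3 leading genes of each cluster. Other pathway genes named with values, such as Jag1, Mfng, Rbpj, Tle6 and Gadd45a, were chosen after their values were seen. Clusters were made with scanpy 1.11.5 (Python 3.11.15) without the pathway genes and are called by their leading genes, with a cell type given only where a marker list was raised. Gene positions are those of GRCm38, matched by Ensembl identifier, and promoters were read from RefSeq (GRCm38.p6).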

Additional observations from a re-analysis of the deposited data

Results flagged for a closer look

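The difference in summed Dll4 between Neurog3 cells and other cells went one way in every duodenal plate and the opposite way in the jejunal plate. Summed Dll4 levels in Neurog3 cells and other cells were 25.6 and 16.8 CPM in duodenum replicate 1, 22.6 and 10.1 CPM in duodenum replicate 2, and 16.3 and 7.5 CPM in duodenum replicate 3. In jejunum replicate 1 they were 0.239 and 14.0 CPM, from 7 and 56 cells. The test of the difference itself, jejunum minus duodenum, gave a log2 value of -6.66 ± 2.85 in edgeR (SE, adjusted p = 0.852), so it did not pass the threshold. The jejunal Neurog3 sum rests on 1 Dll4 count and on 1 plate, and tissue and plate cannot be told apart. The duodenal Neurog3 sums also lean on single cells. Their fullest cell held 51 of 65, 38 of 117 and 86 of 162 Dll4 counts in replicates 1, 2 and 3.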

How the results depend on the processing

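Precision is limited by 4 plates and by 7 to 24 Neurog3 cells in each. The 3 genes lower in Neurog3 cells became 0 with a split at 1 count, 0 with limma on mean log values, 804 with DESeq2, and 0 to 3 when a plate was left out (1 without duodenum replicate 1, 0 without duodenum replicate 2 or the jejunum). Hes1 stayed at -10.68 to -8.79 with a plate left out but was 0.48 with the split at 1 count, where Hes6 was -0.012; thinned, Hes1 did not pass the filter and gave no value. Dll4 had no stable sign: -0.071 (split at 1 count), -0.22 (20 counts), -0.025 (10 CPM), -0.056 (5 counts and 0.5% of the plate), -0.052 (others with 0 counts only), -0.39 (thinned), -0.095 (no filter), and -0.62 to 0.94 with a plate left out. Leaving out cells with 5 Fam241b counts from the other cells, an alternative added after seeing the data, gave 2 genes and a Hes1 detection difference of -9.16 points. Leaving out other cells deeper than the plate's deepest Neurog3 cell was also added then and reversed no detection difference.

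Without the replicate block, the Neurog3 comparison called 0 genes and Dll1 was 0.025; in the additive fit the Neurog3 term called 0 (Dll1 0.12) and the Atoh1 term 544. The block changed no call of a member apart from Hes6 in the Atoh1 term, which was -2.53 with an adjusted p of 0.0432 without it.

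In the additive fit, Dll1 in the Neurog3 term was -2.10 to -0.12 with a plate left out. This term called 557 genes with DESeq2 and 0 with duodenum replicate 2, 3 or the jejunum left out, and Dll4 was -0.056 without a filter and -0.56 to 1.00 with a plate left out. The Atoh1 term called 10 genes without a filter, 16 with RLE, 2347 with DESeq2 and 0 with any of these plates left out, and Dll4 was then -0.23 to 0.74. Leaving out duodenum replicate 1, or asking for 5 cells a sum, left no Atoh1 sum to fit.

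Jejunum against duodenum gave 9 genes without a filter, 731 with DESeq2 and 0 to 10 with a plate left out (10 without duodenum replicate 2, 2 without duodenum replicate 3), Dll4 0.027 without a filter and -0.15 to 0.20 with a plate left out, and Hes1 -0.36 to 0.86. The age comparison gave 226 without a filter, 920 with DESeq2 and 23 thinned, where Hes1 was 0.35, and no plate could be left out of it. Neurog3 at 39 weeks was -3.09 without a filter (edgeR adjusted p = 0.0363).

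Detection differences, in points, with a plate left out were -2.48 to -0.94 for Atoh1, -4.82 to 2.26 for Dll1, -7.45 to 11.3 for Dll4, -12.4 to -6.99 for Hes1 and -3.04 to 5.86 for Hes6. Atoh1 was 0.051 without thinning, Dll4 -2.33 with the split at 1 count and Hes6 -14.1 at 20 counts. The cause of these changes was not tested.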

Other observations

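Marker lists outside the Notch pathway were counted in the same edgeR comparison of Neurog3 cells with other cells, at an unadjusted p of 0.05. At that p, 6.1% of all genes were lower and 0.796% higher, and lists of so few genes cannot be set apart from these shares by counts of 1 or 2. All 8 tested genes of the peptide hormone list had lower fitted values in the Neurog3 cells (list median -5.23 against -0.55 over all genes), namely the hormone genes Gcg, Ghrl, Cck, Gip, Pyy and Sct and the factors Isl1 and Etv1, and 3 of them passed the adjusted threshold. Summed Gip was not lower in duodenum replicate 2 (2725 against 2632.5 CPM). Of 9 cycling genes 2 were lower and none higher, namely the replication licensing genes Mcm5 (-7.85) and Mcm6 (-7.96). Of 9 enterochromaffin genes Ucn3 and Afp were lower, and the list median was -0.20. Summed Afp was higher in the Neurog3 cells of duodenum replicate 1 (92.2 against 8.01 CPM). Of 8 goblet genes 1 was lower (Agr2), of 7 Paneth genes 2 (Itln1 and Ang4), of 6 stem genes 1 (Slc12a2) and of 9 granin genes 2 (Chga and Scg2). Summed Scg2 was higher in the Neurog3 cells of duodenum replicate 1 (125 against 76.9 CPM). No gene of these lists was higher at that p.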
